A study of Mus musculus with 12 samples.

Results

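The genes described here are the replication-dependent histone genes, which lie in clusters on mouse chromosomes 13 (Hist1), 3 (Hist2), 11 (Hist3) and 6 (Hist4). They were taken as every entry of the deposited expression table whose gene name begins with Hist1h, Hist2h, Hist3h or Hist4h, which gave 66 of 23352 entries. By name, 6 of these are entries of linker histone H1, 17 of H2A, 18 of H2B, 12 of H3 and 13 of H4. The H2B entries include Hist3h2bb-ps, a pseudogene by its name, for which no coding length was annotated. By cluster, 53 belong to Hist1, 9 to Hist2, 3 to Hist3 and 1 to Hist4. Expression was given as FPKM, a fragment count divided by transcript length in kilobases and by mapped reads in M (mega), so levels can be compared between genes of different length. A gene was tested where it reached 1 FPKM in at least 3 of the 12 libraries, and 21 of the 66 genes did so, against 13945 of all 23352.

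RNA was measured in whole hippocampus of 4 groups of mice with 3 libraries each. They were N40K-TG mice at 3 months, wild-type (WT) mice at 3 months, N40K-TG mice at 12 months and WT mice at 12 months. N40K is a truncated form of U1-70K, the Snrnp70 product and a component of U1, the spliceosome particle that first contacts an intron's start. The transgenic animals came from 1 line, Tg396, in which a modified CaMKIIa promoter drives N40K in neurons, and the WT animals were littermates without the transgene. All groups were on the C57BL/6J background. RNA was selected by its poly-A tail before sequencing.

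Histones H2A, H2B, H3 and H4 form the core of the nucleosome, around which DNA is wound, and H1 binds the DNA between nucleosomes. The clustered genes supply these proteins while DNA is copied, and their mRNAs are unusual in ending in a conserved stem-loop in place of a poly-A tail. That end is cut with the help of the U7 small nuclear ribonucleoprotein particle and the stem-loop binding protein. Some of the clustered genes are also known to give longer, polyadenylated mRNAs in cells that no longer divide. Selection by poly-A tail captures mRNAs without a tail poorly, so the levels given here do not measure the tail-less mRNAs fully, in any of the 4 groups.

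The stem-loop was searched for by its letters within 100 bases after the stop codon in GENCODE M21 transcripts, which lie on another genome build than the authors' mm9 table and were joined to it by name only. A 16-base stem-loop was found in 40 of the 66 histone genes, against 5 of 21810 other protein-coding genes (0.0229%). Every annotated transcript of a histone gene was searched, but only the longest coding transcript of each other gene, so the searches were unlike. The form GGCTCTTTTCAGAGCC was found in 26 genes, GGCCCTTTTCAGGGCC in 7, and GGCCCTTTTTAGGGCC in 2, which are Hist1h4i and Hist2h4. The stretches below are shown because they lie in genes that the comparisons below turn on, with every family represented. The stem-loop is in capitals and 5 bases on each side are in lower case.
Hist1h1c: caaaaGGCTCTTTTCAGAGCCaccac
Hist1h1d: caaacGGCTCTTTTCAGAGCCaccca
Hist1h2ac: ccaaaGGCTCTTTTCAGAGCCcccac
Hist3h2a: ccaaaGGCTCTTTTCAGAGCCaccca
Hist1h2bg: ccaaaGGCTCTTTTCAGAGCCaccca
Hist1h3d: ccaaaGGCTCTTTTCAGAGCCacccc
Hist1h4i: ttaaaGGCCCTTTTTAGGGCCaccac
Hist1h4j: ctaaaGGTCCTTTTCAGGACCaccac
Hist1h4h: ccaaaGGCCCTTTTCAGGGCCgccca
The annotated transcript ran on after the stem-loop by 840 bases in Hist1h1c, 4884 in Hist1h1d, 2010 in Hist1h2ac, 1643 in Hist3h2a and 330 in Hist1h4i. No stem-loop was found in the annotated transcripts of Hist1h2bc, Hist2h2be, Hist2h3b and Hist1h4k, which says only that these letters were not in the window searched. For Hist1h4k the annotated transcript was the coding sequence alone.

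Promoter windows from 250 bases before to 50 bases after the start were available from RefSeq (GRCm38.p6) for 59 of the 66 genes. They were searched on both strands for TATAAA (the letters of the TATA box), CCAAT and ATTTGCAT (the octamer), none of which contains another. A match was counted wherever it lay in the window, so TATAAA need not be a working TATA box. CCAAT was found in 50 of the 59 windows, against 37.9% of 27025 promoters of all genes, TATAAA in 34 against 14.2%, and ATTTGCAT in 13 against 1.75%. CCAAT was in 6 of 6 H1, 16 of 16 H2A, 15 of 15 H2B and 10 of 10 H3 windows and in 3 of 12 H4 windows. The octamer was in 7 H2A and 6 H2B windows and in 0 of the H1, H3 and H4 windows. Windows of neighbouring genes on opposite strands can overlap, so that a shared site counts for both genes. The windows of Hist1h2bg and Hist1h2ae, for example, share an octamer. The counts of windows are therefore not counts of separate sites. The windows of Hist1h4i (chr13:22041313-22041612, minus strand), Hist1h2bg (chr13:23571150-23571449, plus strand) and Hist1h1d (chr13:23554782-23555081, plus strand) are shown because these genes differed between genotypes at both ages and their promoters hold different motifs. Capitals mark the 3 motifs on either strand.
Hist1h4i: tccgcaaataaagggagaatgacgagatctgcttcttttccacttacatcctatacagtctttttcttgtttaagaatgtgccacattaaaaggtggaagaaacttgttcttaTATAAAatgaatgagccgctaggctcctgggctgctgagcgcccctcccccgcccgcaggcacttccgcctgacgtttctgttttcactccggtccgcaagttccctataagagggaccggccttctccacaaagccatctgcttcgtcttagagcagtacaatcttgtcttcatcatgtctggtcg
Hist1h2bg: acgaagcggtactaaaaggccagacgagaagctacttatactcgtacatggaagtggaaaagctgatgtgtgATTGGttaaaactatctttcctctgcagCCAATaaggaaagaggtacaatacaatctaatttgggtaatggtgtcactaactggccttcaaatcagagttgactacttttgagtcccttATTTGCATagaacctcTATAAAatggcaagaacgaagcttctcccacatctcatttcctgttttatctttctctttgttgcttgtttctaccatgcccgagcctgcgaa
Hist1h1d: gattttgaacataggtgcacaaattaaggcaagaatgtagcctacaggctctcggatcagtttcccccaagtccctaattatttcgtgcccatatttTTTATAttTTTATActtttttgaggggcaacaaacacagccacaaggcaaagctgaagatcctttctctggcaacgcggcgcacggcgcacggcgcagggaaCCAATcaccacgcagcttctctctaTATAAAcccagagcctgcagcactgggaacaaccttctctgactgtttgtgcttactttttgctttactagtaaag
A match to these letters describes the sequence and is not a measured binding site.

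Histone mRNA levels were uneven. Summed over the 12 libraries, Hist1h2bc held 32.0% of the FPKM of all 66 genes, and the 5 genes with the highest means held 65.6%. These were Hist1h2bc, Hist3h2a, Hist3h2ba, Hist1h1c and Hist2h2aa1, at means of 48.3, 16.5, 13.5, 11.3 and 9.41 FPKM. The 45 genes below the filter had means between 0.00509 and 0.685 FPKM, 38 of them under 0.5 FPKM, and 13 were listed at 0 in at least 1 library. The 5 highest of these were Hist1h2bf, Hist2h2bb, Hist2h4, Hist1h2bh and Hist1h2bn.

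The steps between the deposited values gave an estimate of the depth of each library, between 39.95 and 97.2 M fragments, and for 64 of the 66 genes the length over which fragments were counted. For replicate 3 of N40K-TG at 3 months the steps of histone genes gave 39.95 M, the lowest depth at which all 14 values used came out whole, and those of receptor genes gave 79.4 M. In the other 11 libraries the estimates from both sets of genes differed by a ratio of 0.999 to 1.006. The fragment numbers of that replicate, taken at the lower depth, are therefore uncertain by a ratio of 1.99, while FPKM values and tests do not use the depth. Fragments behind a value then ran from 1587 to 4602 per library for Hist1h2bc, from 51 to 396 for Hist1h4i and from 3 to 37 for Hist1h4d. Values of genes with few fragments carry that much more counting error. For 29 of the 64 genes the counted length equalled the coding length, so that fragments from a longer 3' end of these genes would not be counted.

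The libraries of a group correlated with each other at 0.988 to 0.997 (Pearson's r across genes). Snrnp70, whose entry does not separate the truncated transgene from the mouse gene, was at 392.4 ± 13.1 FPKM in N40K-TG and 173 ± 10.5 FPKM in WT at 3 months, and at 294.5 ± 31.95 FPKM in N40K-TG and 122 ± 23.0 FPKM in WT at 12 months (SD, n = 3 each). Neuronal markers were present in every library, at summed levels of 2155 to 2262 FPKM in N40K-TG and 2291 to 2571 FPKM in WT at 3 months, and of 2161 to 2219 FPKM in N40K-TG and 2391 to 2513 FPKM in WT at 12 months. Xist was high in 1 N40K-TG and 2 WT libraries of 3 months and at or under 0.112 FPKM in all others, so the sexes were not balanced. With Xist as a covariate, 16 of the 21 histone genes were called at 3 months and 7 at 12 months. The part of the neuronal markers in the results below was not tested. The labels do not say whether each library came from a separate mouse, so p-values measure the spread between these libraries. In whole tissue, fewer cells of a type and less RNA per cell cannot be told apart.

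At 3 months, histone mRNAs were higher in N40K-TG than in WT hippocampus in every family. Of the 21 genes tested, 18 rose and 0 fell (limma on log2(FPKM + 1), Benjamini-Hochberg adjusted over 13945 genes, threshold 0.05; 19 higher and 0 lower at an unadjusted p under 0.05), where 7.95% of all genes rose and 3.49% fell. The rises covered 1 of 2 H1, 4 of 4 H2A, 4 of 5 H2B, 3 of 4 H3 and 6 of 6 H4 genes. The median difference was 0.70 on the log2 scale, against 0.02 over all genes tested, and differences were above 0 for 21 of 21 (56.2% of all genes). All 3 N40K-TG libraries were above all 3 WT libraries for 20 of the 21 genes, and for 20.4% of all genes. Of the 21 genes, 5 (Hist1h3d, Hist1h4j, Hist1h2ac, Hist1h4m and Hist1h4d) passed the filter through N40K-TG libraries alone, so the count over tested genes favours rises.

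With no filter all 66 histone genes entered the fit, and 24 rose and 0 fell at 3 months, where 4.93% of 21018 genes rose and 2.25% fell. Differences were above 0 for 59 of the 66 genes, and for 53.5% of all genes. All N40K-TG libraries were above all WT libraries for 36 of the 66 (15.9% of all genes) and below them for 1, Hist1h2bm (9.3% of all genes). The rises without the filter were 2 of 6 H1, 7 of 17 H2A, 6 of 18 H2B, 2 of 12 H3 and 7 of 13 H4 genes.

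At 12 months fewer histone genes differed and 1 went the other way. Of the 21 genes, 8 rose and 1 fell in N40K-TG (10 higher and 1 lower at an unadjusted p under 0.05), where 11.2% of all genes rose and 7.71% fell. The rises were 4 of 6 H4 genes, 2 of 4 H2A genes, 1 of 5 H2B genes and 1 of 4 H3 genes. They include Hist1h3d, Hist1h2ac, Hist1h4m and Hist1h4d, which passed the filter through N40K-TG libraries alone, so this count also favours rises. The median difference was 0.29 on the log2 scale, against 0.01 over all genes, and differences were above 0 for 17 of the 21 (51.6% of all genes). All N40K-TG libraries were above all WT libraries for 11 of the 21 genes (21.3% of all genes) and below them for 1 (17.5% of all genes). With no filter, 15 of the 66 rose and 0 fell, where 7.86% of all genes rose and 4.79% fell, and 53 of the 66 differences were above 0 (54.3% of all genes).

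The summed level of the 66 genes was 179, 242 and 193 FPKM in N40K-TG, against 109.97, 99.8 and 131 FPKM in WT, at 3 months. It was 149.98, 153 and 174 FPKM in N40K-TG, against 122, 141 and 116 FPKM in WT, at 12 months. The groups did not overlap at either age, and the ratio of the means was 1.80 at 3 months and 1.26 at 12 months. Without Hist1h2bc the ratios were 1.81 and 1.31. The 45 genes below the filter, which together made up 16.1 to 23.7 FPKM in N40K-TG and 8.52 to 13.9 FPKM in WT at 3 months, gave ratios of 1.75 and 1.86.

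**Figure D1:**
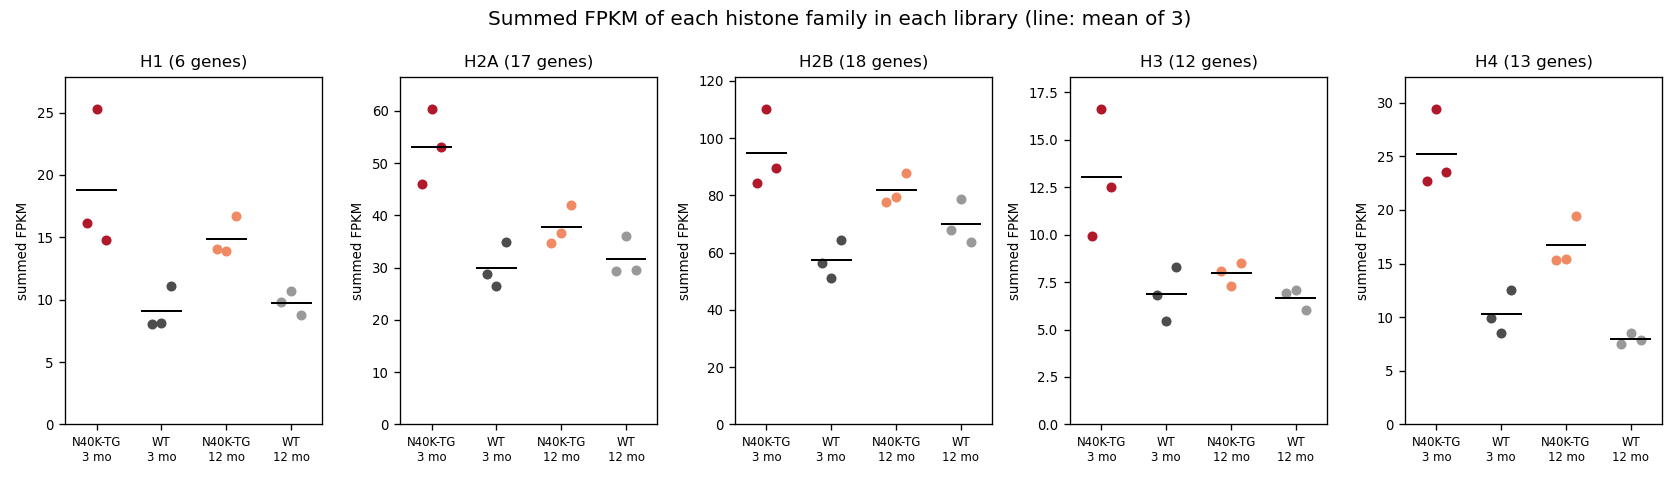
Summed FPKM (y axis) of the 6 H1, 17 H2A, 18 H2B, 12 H3 and 13 H4 genes in each library of the 4 groups (x axis), with the mean of the 3 libraries of a group as a line. The N40K-TG sums lie above the WT sums of the same age in the H4 panel, where the ratio of the means was 2.44 at 3 months and 2.10 at 12 months.

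The H4 genes showed the highest ratio of the families at both ages, as the plot of family sums shows. Their sum averaged 25.2 ± 3.68 FPKM in N40K-TG and 10.3 ± 2.06 FPKM in WT at 3 months, and 16.7 ± 2.33 FPKM in N40K-TG and 7.96 ± 0.535 FPKM in WT at 12 months (SD, n = 3 each). The ratios at 3 and 12 months were 2.06 and 1.52 for H1, 1.77 and 1.19 for H2A, 1.65 and 1.17 for H2B, and 1.90 and 1.19 for H3. By cluster they were 1.96 and 1.38 for Hist1, 1.59 and 1.01 for Hist2, and 1.58 and 1.17 for Hist3. Differences between families or clusters were not tested.

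Among the linker histones, Hist1h1c, which encodes H1.2, was the most abundant. It was at 14.3, 22.6 and 12.9 FPKM in N40K-TG, against 6.76, 7.10 and 9.68 FPKM in WT, at 3 months. Later, at 12 months, it was at 11.6, 11.7 and 14.1 FPKM in N40K-TG, against 8.48, 9.10 and 7.39 FPKM in WT. The N40K-TG libraries were above the WT libraries at both ages. On the log2 scale the difference was 0.97 ± 0.18 (SE) at 3 months (limma adjusted p = 0.00652) and 0.53 ± 0.18 at 12 months (limma adjusted p = 0.0635, not called, with a range of 0.0166 to 0.164 over the alternatives).

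Hist1h1e, which encodes H1.4, was at 0.767, 0.960 and 0.765 FPKM in N40K-TG, against 0.666, 0.648 and 0.703 FPKM in WT, at 3 months. The groups did not overlap, but the log2 difference of 0.13 ± 0.07 was not called (limma adjusted p = 0.318), and at 12 months it was 0.03 (limma adjusted p = 0.844).

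Hist1h1d, which encodes H1.3, did not pass the filter and had the highest ratio of N40K-TG to WT of the 66 genes at 3 months. It was at 0.664, 0.964 and 0.538 FPKM in N40K-TG, against 0.0800, 0.0520 and 0.146 FPKM in WT, at 3 months. At 12 months it was at 0.707, 0.640 and 0.807 FPKM in N40K-TG, against 0.0887, 0.0454 and 0.0796 FPKM in WT. Every N40K-TG library was thus several times above every WT library. The ratio of the means was 7.78 at 3 months and 10.1 at 12 months. Over a counted length of 2977 bases, the 3 libraries of a group held 516 fragments in N40K-TG and 67 in WT at 3 months, and 419 in N40K-TG and 46 in WT at 12 months. In the fit without a filter the log2 differences were 0.65 ± 0.08 (limma adjusted p = 0.00114) and 0.68 ± 0.08 (limma adjusted p = 0.000714), which understate a change at such low values. The difference between the ages was 0.03 (limma adjusted p = 0.935). Of the 100-base windows of its transcript, 0.792% occur in another gene, so near-identical copies share little of it.

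**Figure D2:**
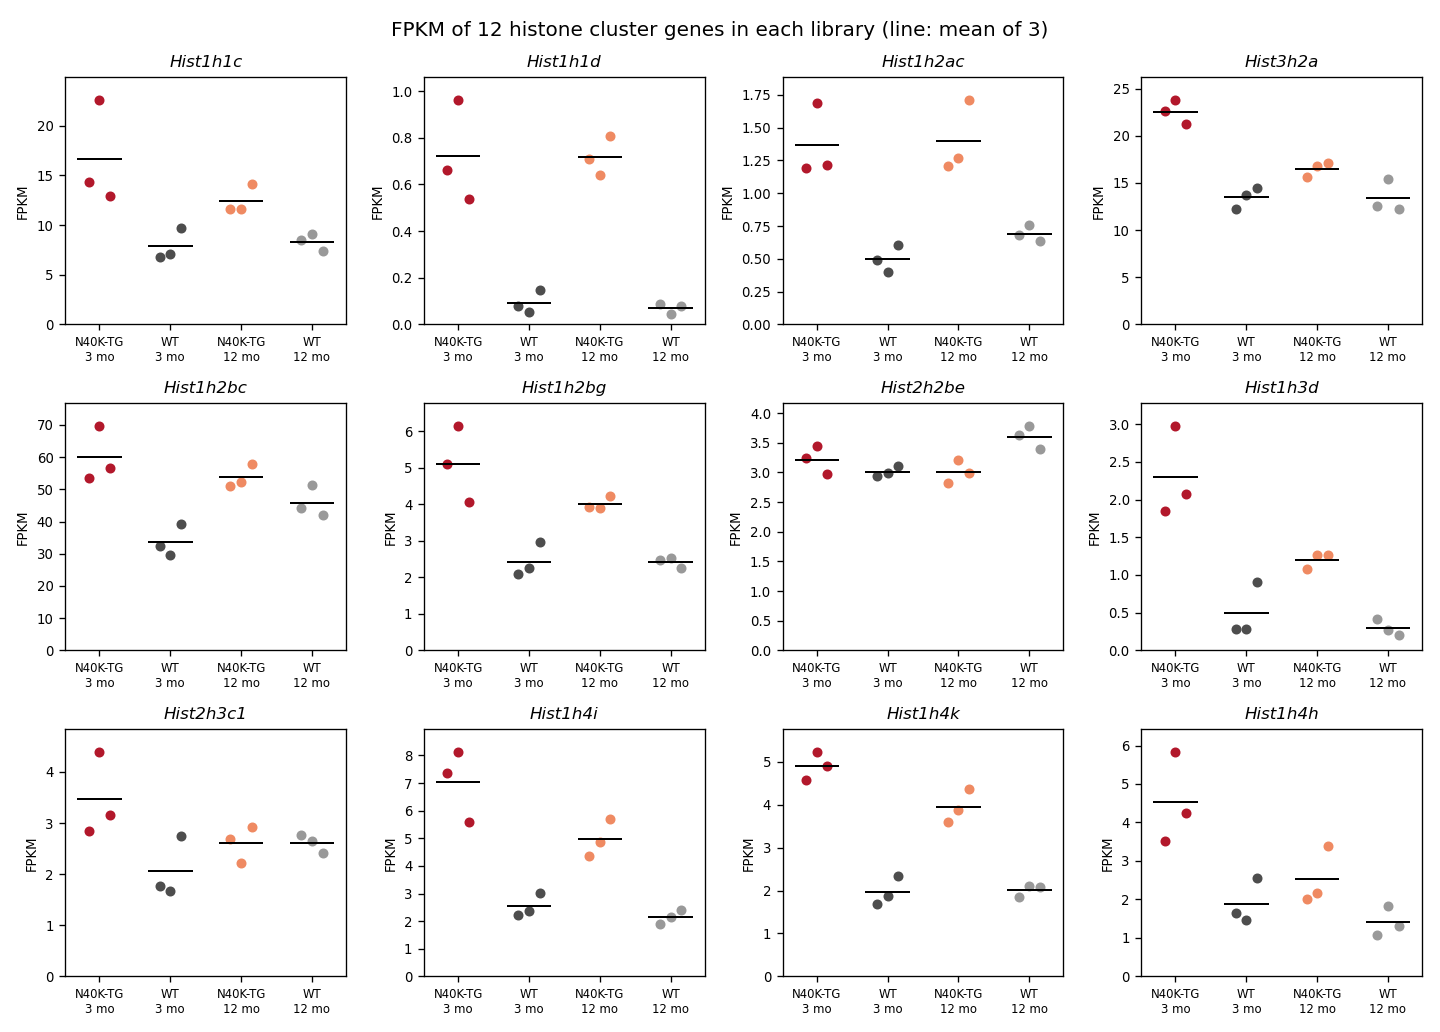
FPKM (y axis of each panel) of 12 histone genes in each library of the 4 groups (x axis), with lines at the mean of 3 libraries. In the Hist1h1d, Hist1h3d, Hist1h4i and Hist1h4k panels the N40K-TG points lie above the WT points of the same age; in the Hist2h2be panel they lie below at 12 months, at 2.82 to 3.22 FPKM in N40K-TG and 3.39 to 3.79 FPKM in WT.

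Among the H2A genes, Hist3h2a was the most abundant. It was at 22.6, 23.8 and 21.3 FPKM in N40K-TG, against 12.2, 13.7 and 14.5 FPKM in WT, at 3 months. In the older groups, at 12 months, it was at 15.6, 16.8 and 17.2 FPKM in N40K-TG, against 12.5, 15.4 and 12.2 FPKM in WT. The groups were apart at both ages, narrowly at 12 months. Its log2 difference was 0.71 ± 0.08 at 3 months (limma adjusted p = 0.000508) and 0.29 ± 0.08 at 12 months (limma adjusted p = 0.0356). The call at 12 months was lost with no filter (limma adjusted p = 0.0560) and without any library of that age other than replicate 2 of WT. Hist3h2a overlaps Trim17 in the reference annotation, and no source used here gives the strand setting of the counting, so fragments of Trim17 cannot be told apart from its own.

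Hist1h2ac, another H2A gene, was at 1.19, 1.69 and 1.21 FPKM in N40K-TG, against 0.487, 0.397 and 0.606 FPKM in WT, at 3 months. At 12 months it was at 1.21, 1.27 and 1.71 FPKM in N40K-TG, against 0.679, 0.760 and 0.637 FPKM in WT. No N40K-TG library fell within the WT range at either age. It rose by 0.66 ± 0.10 on the log2 scale at 3 months (limma adjusted p = 0.00278) and by 0.50 ± 0.10 at 12 months (limma adjusted p = 0.00830). An antisense gene, Gm44350, overlaps it and Gm24991, on the same strand, lies within it, so fragments of these cannot be told apart from its own.

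Hist2h2aa1 and Hist2h2aa2, near-identical copies, had the same number of fragments in 5 libraries and differed by at most 3 in the others, so they are not separate measurements. With the pair taken once, 17 of 20 histone genes rose at 3 months (3 of 3 H2A genes), 8 rose and 1 fell at 12 months, and 15 rose over both ages. Hist2h2aa1 was at 9.83, 15.7 and 12.9 FPKM in N40K-TG, against 7.17, 5.79 and 9.07 FPKM in WT, at 3 months. It was at 8.01, 8.20 and 10.5 FPKM in N40K-TG, against 7.74, 9.87 and 8.16 FPKM in WT, at 12 months, where the groups overlapped. Its log2 difference was 0.72 ± 0.17 at 3 months (limma adjusted p = 0.0212) and 0.04 at 12 months (limma adjusted p = 0.891). Hist2h2aa2 was at 8.65, 13.8 and 11.4 FPKM in N40K-TG, against 6.32, 5.08 and 7.97 FPKM in WT, at 3 months, and at 7.03, 7.20 and 9.17 FPKM in N40K-TG, against 6.79, 8.69 and 7.18 FPKM in WT, at 12 months. Likewise Hist1h2ap and Hist1h2ao, both below the filter, held the same 55 fragments.

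Below the filter, 3 further H2A genes rose at both ages in the fit of all 66 genes. Hist1h2ad was at 0.864, 1.60 and 1.27 FPKM in N40K-TG, against 0.303, 0.0909 and 0.261 FPKM in WT, at 3 months. It was at 0.655, 0.677 and 0.584 FPKM in N40K-TG, against 0.277, 0.230 and 0.236 FPKM in WT, at 12 months. Its ratios were 5.71 and 2.58, those of Hist1h2af 3.74 and 5.45, and those of Hist1h2ae 3.33 and 2.33. Fragments were few: 10, 3 and 8 for Hist1h2ad in WT at 3 months, and 2, 1 and 3 for Hist1h2af in WT at 12 months. Of the 100-base windows, 63.6% of Hist1h2ad, 65.3% of Hist1h2af and 30.7% of Hist1h2ae occur in other genes. How their fragments were shared among genes is therefore uncertain.

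Hist1h2bc, an H2B gene, was the histone gene with the highest level in every group. It was at 53.4, 69.7 and 56.7 FPKM in N40K-TG, against 32.3, 29.5 and 39.2 FPKM in WT, at 3 months. At 12 months it was at 51.0, 52.4 and 57.9 FPKM in N40K-TG, against 44.0, 51.3 and 41.9 FPKM in WT. The groups were far apart at 3 months, and at 12 months the lowest N40K-TG library lay under the highest WT library. The log2 difference was 0.81 ± 0.12 at 3 months (limma adjusted p = 0.00167) and 0.23 ± 0.12 at 12 months (limma adjusted p = 0.194). The difference between these effects, -0.58 ± 0.17, did not pass the test (limma adjusted p = 0.185). Of the 100-base windows of Hist1h2bc, 25.4% occur in other genes.

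Hist1h2bg, also H2B, differed at both ages. It was at 5.10, 6.15 and 4.07 FPKM in N40K-TG, against 2.09, 2.25 and 2.96 FPKM in WT, at 3 months. It was at 3.92, 3.89 and 4.23 FPKM in N40K-TG, against 2.47, 2.53 and 2.26 FPKM in WT, at 12 months. All N40K-TG libraries were above all WT libraries at each age. Its log2 difference was 0.83 ± 0.12 at 3 months (limma adjusted p = 0.00147) and 0.55 ± 0.12 at 12 months (limma adjusted p = 0.00913). Of its 100-base windows 44.9% occur in other genes, so how its fragments were shared among them is uncertain.

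Hist2h2be was the H2B gene that did not rise at 3 months and the histone gene that fell at 12 months. At 3 months it was at 3.24, 3.44 and 2.97 FPKM in N40K-TG, against 2.94, 2.99 and 3.11 FPKM in WT, and the groups overlapped. At 12 months it was at 2.82, 3.22 and 2.99 FPKM in N40K-TG, against 3.63, 3.79 and 3.39 FPKM in WT, without overlap. The log2 difference was 0.07 ± 0.06 at 3 months (limma adjusted p = 0.532) and -0.20 ± 0.06 at 12 months (limma adjusted p = 0.0422). That call is near the threshold: the adjusted p ran from 0.0165 to 0.155 over the alternatives and was 0.0669 with no filter. It was lost without any 1 of 9 libraries and held without replicate 2 or 3 of N40K-TG at 3 months or replicate 3 of WT at 12 months. None of its 100-base windows occur in another gene.

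Hist3h2ba was at 14.4, 20.1 and 16.2 FPKM in N40K-TG, against 11.85, 11.2 and 11.1 FPKM in WT, at 3 months. The values at 12 months were 12.8, 13.35 and 13.9 FPKM in N40K-TG, against 11.5, 14.4 and 10.8 FPKM in WT. The separation seen at 3 months was lost at 12 months, with log2 differences of 0.52 ± 0.11 (limma adjusted p = 0.0145) and 0.13 (limma adjusted p = 0.459).

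Hist1h2be was at 2.34, 2.90 and 2.05 FPKM in N40K-TG, against 1.19, 1.26 and 1.56 FPKM in WT, at 3 months. It was at 2.79, 2.57 and 3.12 FPKM in N40K-TG, against 2.39, 2.69 and 2.25 FPKM in WT, at 12 months, where the groups overlapped. It rose by 0.55 ± 0.10 at 3 months (limma adjusted p = 0.00543) and differed by 0.15 at 12 months (limma adjusted p = 0.304). It overlaps Hist1h1e in the reference annotation, so fragments of the one cannot be told apart from those of the other.

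Among the 4 H3 genes tested, Hist1h3d had the largest log2 difference. It was at 1.85, 2.98 and 2.07 FPKM in N40K-TG, against 0.290, 0.290 and 0.904 FPKM in WT, at 3 months. It was at 1.08, 1.27 and 1.27 FPKM in N40K-TG, against 0.416, 0.274 and 0.201 FPKM in WT, at 12 months. The lowest N40K-TG library was above the highest WT library at both ages. The ratio of the means was 4.65 at 3 months and 4.06 at 12 months, with log2 differences of 1.15 ± 0.16 (limma adjusted p = 0.00119) and 0.77 ± 0.16 (limma adjusted p = 0.00764). Its fragments numbered 10 to 29 per WT library of 3 months, and 20.4% of its 100-base windows occur in other genes.

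The 3 H3 genes of the Hist2 cluster differed at 3 months at most. Hist2h3c1 was at 2.84, 4.40 and 3.15 FPKM in N40K-TG, against 1.77, 1.68 and 2.74 FPKM in WT, at 3 months. Hist2h3b was at 1.25, 2.42 and 1.83 FPKM in N40K-TG, against 1.01, 1.04 and 0.966 FPKM in WT, at 3 months. In both genes the groups were apart, and the log2 differences were 0.55 ± 0.15 for Hist2h3c1 (limma adjusted p = 0.0346) and 0.48 ± 0.13 for Hist2h3b (limma adjusted p = 0.0343). Neither was called with no filter, at limma adjusted p-values of 0.0616 for Hist2h3c1 and 0.0512 for Hist2h3b. Hist2h3c2 was at 1.92, 3.03 and 2.31 FPKM in N40K-TG, against 1.34, 1.39 and 1.86 FPKM in WT, and just missed the threshold, at a log2 difference of 0.43 ± 0.13 (limma adjusted p = 0.05001).

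At 12 months the H3 genes of Hist2 gave no call. Hist2h3c1 was at 2.68, 2.21 and 2.93 FPKM in N40K-TG, against 2.76, 2.66 and 2.41 FPKM in WT. Hist2h3b was at 1.14, 0.809 and 0.857 FPKM in N40K-TG, against 1.02, 1.21 and 1.08 FPKM in WT. Hist2h3c2 was at 2.02, 1.85 and 2.24 FPKM in N40K-TG, against 2.42, 2.59 and 1.89 FPKM in WT. The groups overlapped in each, with limma adjusted p-values of 0.985, 0.533 and 0.550. Hist2h3c1 overlaps Gm20634 and shares all its 100-base windows with other genes, so its values are uncertain. Hist2h3b shares 77.1% and Hist2h3c2 61.6% of such windows with other genes, so the 3 are not separate measurements.

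All 6 H4 genes tested rose at 3 months, and 4 of them at 12 months, beside 7.95% and 11.2% of all genes. Hist1h4j, Hist1h4m and Hist1h4d passed the filter through N40K-TG libraries alone, so these counts favour rises. Unfiltered, 7 of 13 H4 genes rose at 3 months and 6 of 13 at 12 months, beside 4.93% and 7.86% of all genes. Of the 100-base windows, 88.1% of Hist1h4m, 38.5% of Hist1h4h, 19.0% of Hist1h4j, 15.1% of Hist1h4i and 0% of Hist1h4d occur in other H4 genes. Together with Hist1h4k, given below, the 6 are thus not fully separate measurements. Hist1h4i was at 7.36, 8.14 and 5.59 FPKM in N40K-TG, against 2.22, 2.37 and 3.03 FPKM in WT, at 3 months. It was at 4.36, 4.87 and 5.70 FPKM in N40K-TG, against 1.91, 2.14 and 2.42 FPKM in WT, at 12 months. The N40K-TG range did not touch the WT range at either age. The log2 difference was 1.18 ± 0.13 at 3 months (limma adjusted p = 0.000282) and 0.92 ± 0.13 at 12 months (limma adjusted p = 0.00103).

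Hist1h4k had the smallest adjusted p of the histone genes at 3 months. It was at 4.58, 5.23 and 4.89 FPKM in N40K-TG, against 1.68, 1.87 and 2.34 FPKM in WT, at 3 months. It was at 3.60, 3.87 and 4.37 FPKM in N40K-TG, against 1.84, 2.10 and 2.08 FPKM in WT, at 12 months. The N40K-TG libraries were again all above the WT libraries. The log2 difference was 1.00 ± 0.09 at 3 months (limma adjusted p = 6.55e-05) and 0.72 ± 0.09 at 12 months (limma adjusted p = 0.000454). Of its 100-base windows 64.3% occur in other H4 genes, so how its fragments were shared among them is uncertain.

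Hist1h4h was at 3.51, 5.84 and 4.24 FPKM in N40K-TG, against 1.64, 1.47 and 2.55 FPKM in WT, at 3 months. It was at 2.01, 2.16 and 3.39 FPKM in N40K-TG, against 1.07, 1.84 and 1.31 FPKM in WT, at 12 months. The groups did not overlap, but the log2 difference of 0.93 ± 0.20 at 3 months was called (limma adjusted p = 0.0116) and that of 0.54 ± 0.20 at 12 months was not (limma adjusted p = 0.0777).

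Hist1h4j was at 1.71, 2.83 and 1.28 FPKM in N40K-TG, against 0.992, 0.458 and 0.903 FPKM in WT, at 3 months, and at 0.750, 0.888 and 1.03 FPKM in N40K-TG, against 0.448, 0.506 and 0.429 FPKM in WT, at 12 months. Its groups were apart at both ages, and the log2 difference was 0.70 ± 0.17 at 3 months (limma adjusted p = 0.0223) and 0.37 ± 0.17 at 12 months (limma adjusted p = 0.146). Hist1h4m was at 1.19, 1.28 and 1.24 FPKM in N40K-TG, against 0.559, 0.206 and 0.633 FPKM in WT, at 3 months, and at 0.982, 0.848 and 0.832 FPKM in N40K-TG, against 0.422, 0.167 and 0.153 FPKM in WT, at 12 months. It rose by 0.62 ± 0.12 at 3 months (limma adjusted p = 0.00693) and by 0.60 ± 0.12 at 12 months (limma adjusted p = 0.00586).

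Hist1h4d had the lowest level of the H4 genes tested and differed by age as well as genotype. It was at 1.12, 1.31 and 1.28 FPKM in N40K-TG, against 0.802, 0.611 and 0.945 FPKM in WT, at 3 months. It was at 0.450, 0.426 and 0.442 FPKM in N40K-TG, against 0.149, 0.217 and 0.165 FPKM in WT, at 12 months. The highest library of 12 months, an N40K-TG one, was under the lowest library of 3 months. Genotype differences were 0.33 ± 0.08 at 3 months (limma adjusted p = 0.0239) and 0.29 ± 0.08 at 12 months (limma adjusted p = 0.0280), where the call was lost without any library of that age other than replicate 2 of WT.

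Hist2h4, an H4 gene below the filter, differed at 12 months. It was at 1.41, 0.987 and 1.41 FPKM in N40K-TG, against 0.491, 0.648 and 0.562 FPKM in WT, at 12 months. It was at 0.621, 0.444 and 0.288 FPKM in N40K-TG, against 0.411, 0.411 and 0.258 FPKM in WT, at 3 months, with overlap. In the fit of all 66 genes the log2 difference was 0.53 ± 0.10 at 12 months (limma adjusted p = 0.00789) and 0.09 at 3 months (limma adjusted p = 0.696). Hist4h4, the sole gene of its cluster, averaged 0.0767 FPKM in N40K-TG and 0.0828 FPKM in WT at 3 months, and 0.0815 FPKM in N40K-TG and 0.0799 FPKM in WT at 12 months.

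**Figure D3:**
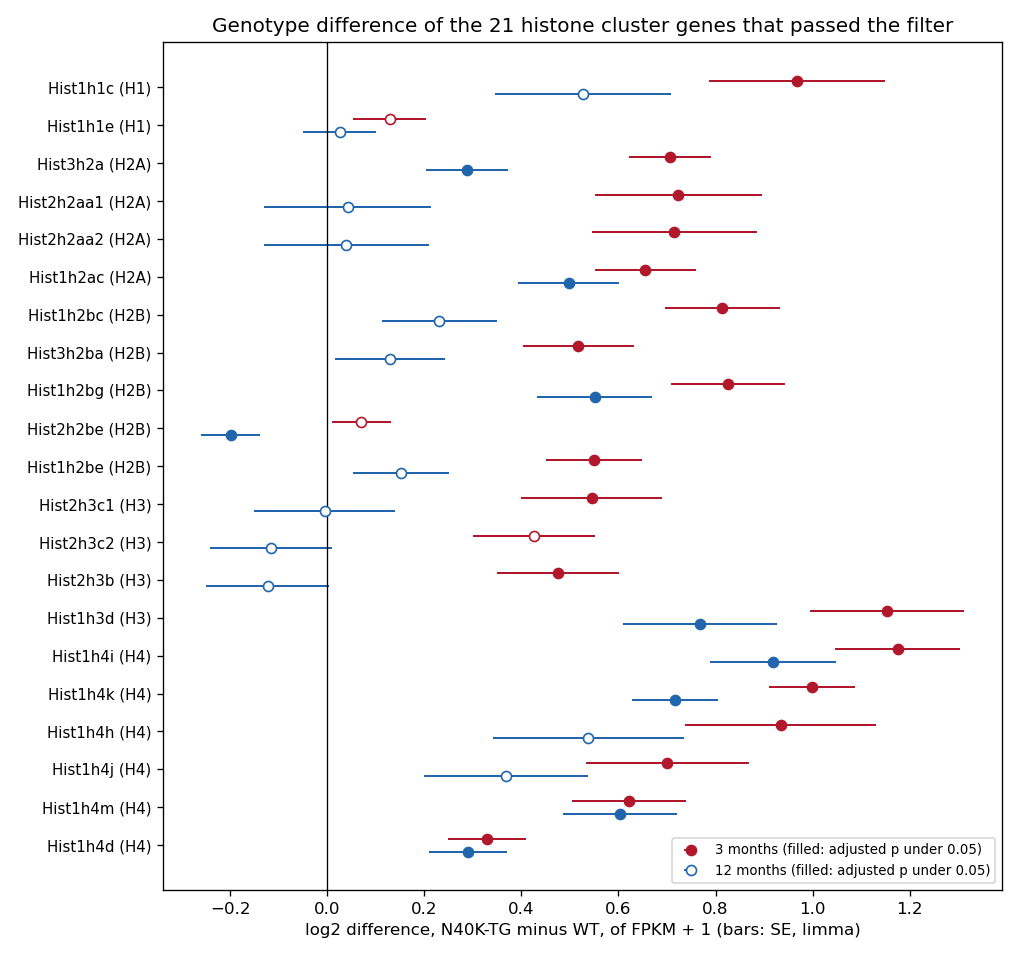
Log2 difference, N40K-TG minus WT, with its standard error (x axis), for the 21 tested genes (y axis, ordered by family) at 3 months (red) and 12 months (blue); filled points passed the threshold. The red points run from 0.07 for Hist2h2be to 1.18 for Hist1h4i, and the blue points from -0.20 for Hist2h2be to 0.92 for Hist1h4i.

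Over both ages, 16 of the 21 histone genes rose and 0 fell in N40K-TG, where 15.5% of all genes rose and 9.54% fell. These 16 include Hist1h3d, Hist1h4j, Hist1h2ac, Hist1h4m and Hist1h4d, which passed the filter through N40K-TG libraries alone, so the count favours rises. The averaged log2 difference was 1.05 ± 0.09 for Hist1h4i (limma adjusted p = 1.94e-05) and 0.86 ± 0.06 for Hist1h4k (limma adjusted p = 4.14e-06). The 5 genes not called were Hist1h1e, Hist2h2be and the 3 H3 genes of Hist2. With no filter, 27 of the 66 rose and 0 fell, where 11.3% of 21018 genes rose and 6.34% fell.

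The genotype effects at the 2 ages were also compared with each other. Of the 21 genes, 0 passed the test of the difference between the effects (limma; 0 higher and 11 lower at an unadjusted p under 0.05), where 9 of 13945 genes (0.0645%) passed and 1997 had an unadjusted p under 0.05. Estimates were above 0 for 0 of the 21 histone genes and for 46.9% of all genes, with a median of -0.39 over the 21 and -0.01 over all genes. The lowest were Hist2h2aa1 at -0.68 ± 0.24 (limma adjusted p = 0.250) and Hist2h3b at -0.60 ± 0.18 (limma adjusted p = 0.198). Without replicate 1 of N40K-TG at 3 months, 1 of the 21 passed, Hist2h3b, at -0.75 ± 0.14 (limma adjusted p = 0.0301), and 162 of all genes did. With no filter, estimates were above 0 for 15 of the 66 histone genes, with a median of -0.11, against 0.0007 over all genes. Hist1h4m and Hist1h4d passed the filter through N40K-TG libraries of 3 months alone, which favours estimates below 0 among the genes tested. The plot of differences at both ages shows the blue points at or left of the red points of the same gene.

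With age, averaged over both genotypes, 2 of the 21 histone genes were higher and 8 lower at 12 than at 3 months, where 17.7% of all genes were higher and 42.9% lower. Hist1h4d was lower by 0.62 ± 0.06 on the log2 scale (limma adjusted p = 5.25e-06), and 4 other H4 genes fell by 0.24 to 0.45. Hist1h4d and Hist1h4m passed the filter through N40K-TG libraries of 3 months alone, the age at which they are high. Hist1h3d fell by 0.38, Hist2h3b by 0.23 and Hist3h2a by 0.22. The genes higher at 12 months were Hist1h1e, by 0.36 ± 0.05 (limma adjusted p = 0.000138), and its overlapping neighbour Hist1h2be, by 0.36 ± 0.07 (limma adjusted p = 0.000917). With no filter, 3 of the 66 were higher and 28 lower, where 13.6% of all genes were higher and 30.1% lower. FPKM summed over all genes were 309357 to 332941 in the libraries of 12 months and 343393 to 350760 in those of 3 months. Of all genes called, 29.1% were higher at 12 months in the values as deposited and 48.5% after median-ratio scaling, under which 4 of the 21 histone genes were higher and 4 lower. The labels give no processing dates, so age and any difference in processing cannot be told apart.

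Neighbouring genes were not always called together. RefSeq starts of 8 pairs of an H2A and an H2B gene lie within 300 bases of each other on opposite strands. Pairs were sought only among the 59 genes with a promoter window, so a pair holding Hist1h2bc or Hist2h2be could not be found. Without the filter, 4.93% of all genes rose at 3 months and 7.86% at 12 months. In the fit of all 66 genes both members rose in 1 pair at each age, Hist1h2bg and Hist1h2ae, whose starts are 178 bases apart and whose ratios at 3 months were 2.10 and 3.33. In the pair of Hist1h2ad and Hist1h2bf, 172 bases apart, Hist1h2ad rose at both ages and Hist1h2bf did not pass the test, with ratios of 5.71 and 1.40 at 3 months and of 2.58 and 0.832 at 12 months. Hist1h2bp rose at 3 months beside Hist1h2an, which was not called, although their ratios were alike at 2.06 and 1.94. Hist1h2an held only 36 fragments over the 12 libraries. In the other 5 pairs 0 members were called at either age; their levels were under the filter throughout.

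The rises were seen both in genes counted over the coding sequence and in genes counted over longer transcripts. The counts that follow are from the fit without a filter, in which 4.93% of all genes rose at 3 months and 7.86% at 12 months. Of the 29 genes whose counted length equalled the coding length, 7 rose at 3 months and 7 at 12 months, with Hist1h4k the highest at a mean of 3.20 FPKM. Of the 21 genes counted more than 150 bases beyond it, 14 rose at 3 months and 5 at 12 months. Of the 13 in between, 2 rose at 3 months and 3 at 12 months. The groups of genes differ in level, with medians of 0.371, 2.59 and 0.263 FPKM, and the share of calls was not tested between them. By sequence, 20 of the 40 genes with a stem-loop and 4 of the 26 without rose at 3 months, and 12 and 3 of them at 12 months. These sets differ in level too, with medians of 0.610 and 0.237 FPKM, and the share of calls was not tested between them.

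**Figure D4:**
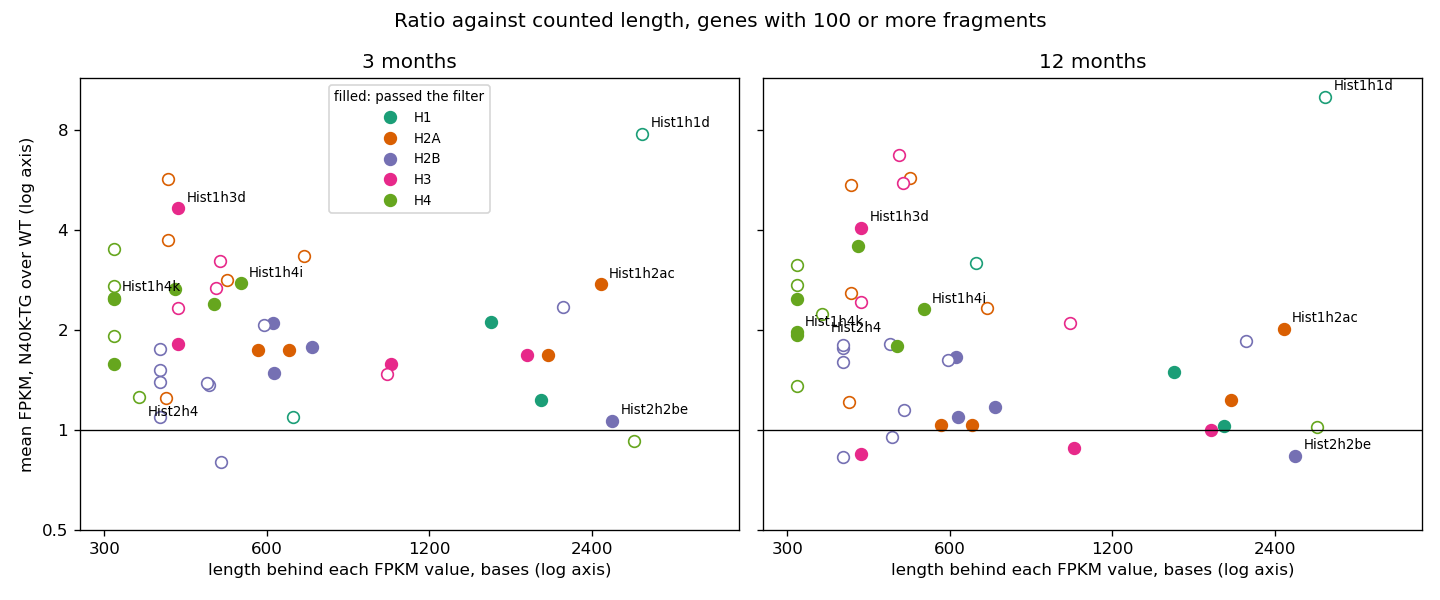
Ratio of mean FPKM, N40K-TG over WT (y axis, log scale), against the counted length in bases (x axis, log scale), for the 45 histone genes with at least 100 fragments over the 12 libraries, at 3 months (left) and 12 months (right). Colours mark the 5 families and filled points passed the filter on low values; the highest point in each panel is Hist1h1d, at ratios of 7.78 and 10.1 and a length of 2977 bases.

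Of 31 tested factors of histone mRNA 3' end formation and turnover, 6 rose and 1 fell at 3 months, where 7.95% of all genes rose and 3.49% fell (11.4% called in all). At 12 months 4 rose and 0 fell, where 11.2% of all genes rose and 7.71% fell (18.9% called in all). Their median log2 differences were 0.07 at 3 months and -0.01 at 12 months. Those called at both ages were Srrt, which encodes the RNA end-processing adaptor ARS2, at 0.33 and 0.23, and Pcf11, a cleavage and termination factor, at 0.27 and 0.30. Slbp, the stem-loop binding protein, differed by 0.07 (limma adjusted p = 0.565) and -0.09 (limma adjusted p = 0.417). Lsm10 and Lsm11, proteins particular to the U7 particle, were not called at either age. Snrpb and Snrpf, Sm proteins shared by the U7 and spliceosomal particles, rose at 3 months, by 0.21 and 0.46. Mblac1, an endonuclease for histone pre-mRNA, rose by 0.34 and Upf1, a helicase of mRNA decay, by 0.16 at 3 months, and the cleavage factor Cstf2 fell by 0.26. Npat, which activates histone gene transcription, rose by 0.29 and the nuclease subunit gene Cpsf3 by 0.18 at 12 months.

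Replacement histone genes outside the clusters were listed as giving polyadenylated mRNA, which was not checked for each gene. One of them, H2afx, shares 100-base windows with clustered H2A genes such as Hist2h2aa1. Of 11 tested, 2 rose and 0 fell at 3 months, H2afy by 0.26 and H2afx by 0.49, beside 7.95% and 3.49% of all genes. Their median log2 difference was 0.18, against 0.02 over all genes, and the summed level of all 12 was 422 to 456 FPKM in N40K-TG and 396 to 406 FPKM in WT, without overlap. At 12 months the median was -0.09 and the sums overlapped, at 348 to 360 FPKM in N40K-TG and 346 to 404 FPKM in WT. There, beside 11.2% and 7.71% of all genes, H2afy and H2afy2, which encode macroH2A proteins, rose by 0.13 and 0.22, and H2afj and H2afz, which encode H2A variants, fell by 0.38 and 0.19. Of 19 histone chaperone and supply genes, 0 rose and 1 fell at 3 months (Nap1l2), and 0 rose and 2 fell at 12 months (Nap1l4 and Nap1l2), beside the same shares of all genes.

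Markers of dividing cells were low in every group. None of 4 markers (Mki67, Top2a, Cdk1 and Ccnb1) passed the filter, and their summed level was 1.27 to 1.42 FPKM in N40K-TG and 1.25 to 1.72 FPKM in WT at 3 months, and 0.760 to 0.825 FPKM in N40K-TG and 0.543 to 0.592 FPKM in WT at 12 months. The groups overlapped at 3 months and did not overlap at 12 months. The counts of the next 3 gene lists stand beside 7.95% of all genes higher and 3.49% lower at 3 months, and 11.2% higher and 7.71% lower at 12 months. Of 18 tested DNA replication and cell cycle genes, 1 rose at 3 months (Mcm7, by 0.23), 1 at 12 months (Ccne2, by 0.18) and 0 fell at either age. Of 10 progenitor and newborn neuron genes, Hes5 rose by 0.71 and 0.43 and Dcx by 0.53 at 12 months, and 0 fell. Of 94 small nucleolar and other RNAs that also lack poly-A tails, 4 rose and 0 fell at 3 months (median 0.02) and 10 rose and 3 fell at 12 months (median 0.11).

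A single library was at the top of most histone genes. Replicate 2 of N40K-TG at 3 months was the highest of its group for all 21 tested genes and the highest of the 12 libraries for 17. It was also the highest of its group in Ttr, a choroid plexus gene, at 1700 FPKM, against 96.8 and 74.3 FPKM in the other N40K-TG libraries. Ttr was at 139, 122 and 5813 FPKM in WT at 3 months, and replicate 3 of WT was highest of its group for 18 of the 21 histone genes. At 12 months Ttr was at 25.2, 223 and 2977 FPKM in N40K-TG, whose replicate 3 was highest for 15 histone genes, and at 1282, 1053 and 2152 FPKM in WT, whose replicate 2 was highest for 17. Replicates 1 and 3 of N40K-TG at 3 months were below every WT library of that age in Ttr and above every one in 20 of the 21 histone genes. Summed levels of all 5 choroid plexus markers ran from 80.1 to 1751 FPKM in N40K-TG and from 132 to 5922 FPKM in WT at 3 months, and from 29.7 to 3069 FPKM in N40K-TG and from 1079 to 2203 FPKM in WT at 12 months. The part of choroid plexus tissue in the histone differences was not tested. Without replicate 2 of N40K-TG, 12 of the 21 genes were called at 3 months, and without replicate 2 of WT 10 were, all higher. At 12 months, 6 were called without any 1 of the 3 N40K-TG libraries or without replicate 1 of WT.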

How the data were processed

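Hippocampal RNA was extracted with Trizol, selected by poly-A tail and sequenced in pairs from TruSeq libraries, per the labels. The authors deposited FPKM values in 1 table of 23352 genes by 12 libraries, and 0 columns were left unmapped. CASAVA, STAR, BWA and the mm9 build are named in the submitters' processing notes. The counting tool, annotation and strand use are not given in the sources used here.

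Values were tested as log2(FPKM + 1) with limma 3.58.1 in R 4.3.3, for genes at 1 FPKM or more in at least 3 libraries. One fit held 4 group means and 5 contrasts, with eBayes and a mean-variance trend, two-sided, Benjamini-Hochberg adjustment over all genes and a threshold of 0.05. Fold changes on this scale understate changes of low genes. Ratios, sums and fragment numbers are descriptions without a test. Fragments were recovered as FPKM times counted length times depth. The fit was tested on simulated data. Histone genes and gene lists were chosen with earlier results of these data known. Every histone gene past the filter is named; those below it by counts, the 5 highest means and those named after their values were seen (Hist1h1d, Hist1h2ad, Hist1h2af, Hist1h2ae, Hist1h2bm, Hist4h4 and the paired genes); of other lists, at most 6 called genes a contrast.

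The 24 alternatives used a pseudocount of 0.5 or 0.1, quantile normalization, median-ratio scaling, every gene unfiltered, a filter on a mean of 5 FPKM, removal of a lowess trend (span 0.3) on transcript length or GC content, Xist as a covariate, the replicate number as a block, robust eBayes, each age alone and each of the 12 libraries left out. Sequences came from GENCODE M21 and RefSeq GRCm38.p6. Python 3.11.15, pandas 2.3.3, numpy 2.4.6 and matplotlib 3.10.9 were used.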

Additional observations from a re-analysis of the deposited data

How the results depend on the processing

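Of 1388 values of single genes under the alternatives, 1245 kept their direction and side of the threshold, 134 lost the call, 5 gained it and 4 changed sign. The sign changes were all in the age contrast: Hist2h3b gave 0.059 and Hist1h4m 0.0261 with the GC trend removed, and Hist1h1c gave 0.0604 with the length trend and 0.0325 with the GC trend removed; the cause was not tested. Histone genes called under every alternative that tested them numbered 10 at 3 months (Hist1h1c, Hist1h2ac, Hist1h2bc, Hist1h2be, Hist1h2bg, Hist1h3d, Hist1h4i, Hist1h4k, Hist1h4m and Hist3h2a) and 6 at 12 months (Hist1h2ac, Hist1h2bg, Hist1h3d, Hist1h4i, Hist1h4k and Hist1h4m). At 3 months the other 8 lost the call without at least 1 library of that age: Hist1h4h and Hist3h2ba without replicate 2 of WT, Hist1h4j without replicate 2 of either genotype, and Hist1h4d, Hist2h2aa1, Hist2h2aa2, Hist2h3b and Hist2h3c1 without replicate 2 or 3 of N40K-TG or replicate 1 or 2 of WT, Hist2h3b also without replicate 3 of WT.

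The count of called histone genes moved with the filter, which sets how many are tested and changed some calls of genes tested either way. With a mean of at least 5 FPKM, under which 6 were tested, it was 6 at 3 months, 1 at 12 months, 6 averaged and 1 by age. With no filter it was 15 at 12 months, 27 averaged and 31 by age. With Xist as a covariate 6 were called by age. Leaving out 1 library gave 10 to 19 at 3 months, 6 to 10 at 12 months, 14 to 18 averaged, 0 to 1 for the change of effect and 8 to 10 by age. Over all genes it gave 797 to 2226 at 3 months, 1356 to 2607 at 12 months, 2732 to 3480 averaged, 0 to 162 for the change of effect and 7900 to 8698 by age. Each age alone gave 1499 genes at 12 months and 12 and 8 histone genes at 3 and 12 months. The 9 genes whose effect changed with age became 4 with the length trend removed, 2 with the GC trend removed and 0 with Xist.

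Among all called genes the share that was higher was 69.5% at 3 months, 61.9% averaged and 29.1% by age as deposited, against 53.5%, 52.9% and 48.5% after median-ratio scaling; of the histone genes 18, 16 and 8 were called under that scaling.

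Replicate numbers do not pair the libraries: correlations of same-numbered deviations ran from -0.456 to 0.723, and not every library correlated best with its own number. With the replicate block, 16, 9, 16, 0 and 9 histone genes were called at 3 months, at 12 months, averaged, for the change of effect and by age, and 0 of all genes for the change of effect.

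Depth limits the 45 genes below the filter most, 13 of which were listed at 0 in at least 1 library.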
